A study of Mus musculus with 81 samples.

Results

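The blood T-cell receptor β (TCRβ) repertoire of 7 previously cured mice was compared 1 day before (day 126) and 9 days after (day 136) challenge with EL4. The libraries were selected by group and paired by the animal code in their labels, which gave 14 of the 81 libraries of the series and 7 pairs. All 7 animals were Pep Boy mice (CD45.1 on a C57BL/6 background) that had carried EG7.OVA tumors, had received 1e6 naïve OT-1 cells and had been treated. The agent, mRBC-OVA-4-1BBL-IL-12, was given as 2.5e8 mouse red blood cells carrying an ovalbumin (OVA) peptide on MHC class I with 4-1BBL and IL-12. They were rechallenged with EG7.OVA on day 66 and challenged with 1e5 EL4 cells on day 127. EL4 is a mouse T-cell lymphoma, and EG7.OVA is its OVA-expressing derivative. OT-1 cells carry a transgenic receptor for the OVA peptide and came from CD45.2 donors. Cured mice left without EL4 were not among these libraries, so the challenge and the passing of days cannot be told apart. Which mice rejected EL4 was not given by the labels, and results are therefore given by mouse.

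Each T cell rearranges its TCRβ gene by joining a V, a D and a J segment with bases lost and added at the joints. The joint region, CDR3, is the part of the chain that mostly contacts the antigen peptide, and its nucleotide sequence is nearly a bar code for a T cell and its progeny. A repertoire of naïve cells holds very many such clones at similar low numbers, whereas an immune response raises a few. Clonality expresses this on a scale from 0, where all clones have the same size, to 1, where 1 clone holds everything. Here a clone is a productive (in-frame) nucleotide rearrangement, and a template is a rearranged gene copy counted by the assay. The 14 libraries held 128230 productive rearrangement records and 174409 productive templates, from 6340 to 22737 templates per library. Productive rearrangements made up 66.1% to 70.3% of all templates.

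The sequences below are those of the transferred OT-1 clone and, in each mouse, of the non-OT-1 clone with the most templates over both days. Each read has 87 bases, and capitals mark the CDR3 part of the read, beginning at the conserved cysteine codon. For OT-1 the form with the most templates in mouse 1 on day 126 is given, since up to 15 nucleotide rearrangements per library encoded its CDR3.
OT-1, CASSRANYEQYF, TCRBV12-01 with TCRBJ02-07: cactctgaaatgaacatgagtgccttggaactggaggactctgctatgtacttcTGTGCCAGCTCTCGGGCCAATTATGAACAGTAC
mouse 1, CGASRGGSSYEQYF, TCRBV20-01 with TCRBJ02-07: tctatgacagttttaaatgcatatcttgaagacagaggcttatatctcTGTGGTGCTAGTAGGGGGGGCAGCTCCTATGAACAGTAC
mouse 2, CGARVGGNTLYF, TCRBV20-01 with TCRBJ01-03: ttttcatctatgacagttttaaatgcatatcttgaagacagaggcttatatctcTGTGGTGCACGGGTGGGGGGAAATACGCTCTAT
mouse 3, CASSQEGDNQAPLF, TCRBV02-01 with TCRBJ01-05: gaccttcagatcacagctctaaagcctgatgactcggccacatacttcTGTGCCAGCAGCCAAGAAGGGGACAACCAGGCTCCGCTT
mouse 4, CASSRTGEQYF, TCRBV14-01 with TCRBJ02-07: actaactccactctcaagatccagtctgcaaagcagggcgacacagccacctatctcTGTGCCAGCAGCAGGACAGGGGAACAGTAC
mouse 5, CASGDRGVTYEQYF, TCRBV13-02 with TCRBJ02-07: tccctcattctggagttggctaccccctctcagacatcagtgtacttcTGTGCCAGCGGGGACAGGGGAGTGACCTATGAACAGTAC
mouse 6, TCRBV14-01 with TCRBJ02-07: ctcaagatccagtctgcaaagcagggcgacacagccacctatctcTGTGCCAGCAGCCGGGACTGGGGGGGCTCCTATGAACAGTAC
mouse 7, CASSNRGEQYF, TCRBV19-01 with TCRBJ02-07: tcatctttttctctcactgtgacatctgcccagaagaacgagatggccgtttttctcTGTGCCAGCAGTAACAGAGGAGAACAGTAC

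These clones belonged to different mice: none of the 7 host sequences was found in a blood library of another mouse. The clones of 5 of the 7 mice used TCRBJ02-07, as did OT-1. The clone of mouse 1, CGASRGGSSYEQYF, had 15 templates on day 126 and 130 on day 136, or 0.191% and 1.39% of templates other than OT-1. That of mouse 3, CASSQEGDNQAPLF, had 0 templates on day 126 and 24 on day 136. With its 15 templates the clone of mouse 1 was already as large as any other non-OT-1 clone in its day 126 library. The same held on day 65, with 18 templates. The clone of mouse 3 was not found on days 65, 73 and 126.

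In the other mice the clone held a larger share before EL4 than that of mouse 1. The clone of mouse 6 held 2.28% of templates other than OT-1 on day 126 and 2.69% on day 136, and it already had 287 templates on day 65. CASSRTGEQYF of mouse 4 held 1.23% and 1.29%, and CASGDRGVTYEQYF of mouse 5 held 0.879% and 0.787%. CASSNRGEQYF of mouse 7 held 2.50% before and 1.75% after, and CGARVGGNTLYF of mouse 2 held 0.457% and 0.379%. The members of this set were chosen for their size over both days, so these values are a description and were not tested.

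The transferred OT-1 CDR3 outweighed the largest other clone in 5 of 7 mice on both days, and its share of productive templates was lower on day 136 in 5 of 7 mice. Its share on day 126 had a lowest value of 0%, a median of 7.56% and a highest of 15.6%, against 0.0242%, 5.17% and 12.0% on day 136. The mean was 7.36% ± 6.04 (SD, n = 7) before and 5.51% ± 4.62 after, with a mean within-mouse change of -1.85 ± 1.73 percentage points. The exceptions were mouse 6, with 0.916% and 1.01%, whose 95% Wilson intervals overlap, and mouse 2. In mouse 2 OT-1 had 0 of 6340 templates on day 126, which allows a share of up to 0.0473%, and 3 templates on day 136. Such intervals and limits cover counting error only, since templates are estimated from amplified DNA.

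The dominant rearrangement of EG7.OVA tumors was not detected in blood. The in-frame rearrangement with the highest mean share in the 5 EG7.OVA tumors of mice given control red cells in a separate experiment, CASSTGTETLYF (TCRBV15-01 with TCRBJ02-03), held on average 58.0% of all templates there and was present in 5 of 5 tumors. It had 0 templates in all 14 libraries around EL4, which allows shares of at most 0.0132% to 0.0299% of productive templates in the libraries of day 136. The most frequent rearrangement that was not in frame was found in only 1 of the 5 tumors and therefore does not mark the line. No library of EL4 cells was analysed here, so whether the injected EL4 cells carry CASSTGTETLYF was not tested.

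More templates were counted after EL4, and every other measure has to be read beside this difference in depth. Productive templates numbered 10396 ± 2582 on day 126 and 14519 ± 4593 on day 136, and were higher in 6 of 7 mice. Mouse 7 was the exception, with 12517 before and 10257 after. The mean difference of 4123 templates had p = 0.0469 in an exact 2-sided sign-flip test over the 7 mice, and an adjusted p of 0.117 over the 10 whole-repertoire measures (exact test, Benjamini-Hochberg). The number of templates depends on the blood taken and on the T cells in it, which cannot be told apart here.

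Clonality was computed at an equal depth of 6340 templates, as the value expected when that many templates are drawn from each library. With OT-1 in the repertoire it had a lowest value of 0.0112, a median of 0.0514 and a highest of 0.115 on day 126, and 0.00662, 0.0334 and 0.0858 on day 136. It was lower after EL4 in 6 of 7 mice, and in mouse 6 it was higher, at 0.0199 and 0.0232. The mean change of -0.0133 ± 0.0107 had an exact p of 0.0312 and an adjusted p of 0.104, so it did not pass the threshold of 0.05. The smallest p that 7 pairs allow in this exact test is 0.0156. After adjustment over 10 measures, a single measure at that smallest p would not pass on its own. For each of the 10 measures, not passing therefore does not show that the days were alike.

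Without OT-1 the average clonality hardly differed between the days. It was 0.0133 ± 0.00456 on day 126 and 0.0129 ± 0.00668 on day 136 (exact p = 0.906, adjusted p = 0.906). Mouse 1 went the furthest, from 0.00979 to 0.0218, and mouse 6 was also higher on day 136, with 0.0170 and 0.0200. The other 5 mice were lower, the most in mouse 2, with 0.0112 and 0.00661. The sign of the mean difference depended on how clonality was computed: it was 0.00142 at full depth and 0.000349 with the Simpson index. In the plot of the measures by mouse, the lines of clonality without OT-1 cross, while those with OT-1 run downward in all mice but mouse 6.

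**Figure D1:**
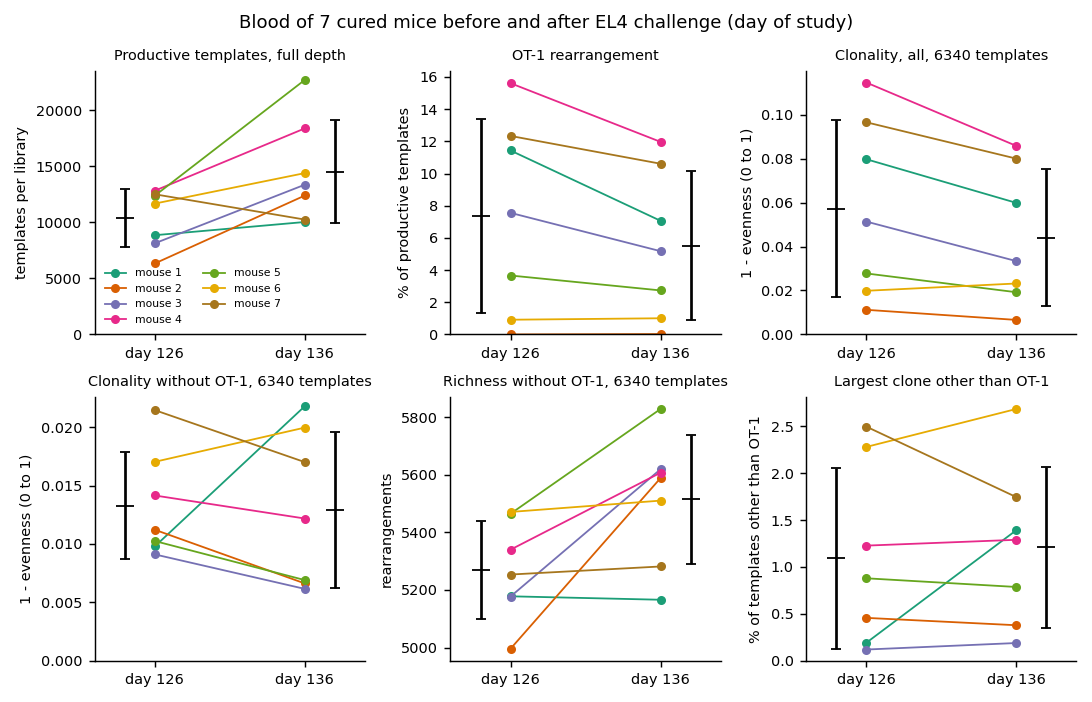
Whole-repertoire measures on day 126 and day 136, with 1 coloured line for each of the 7 mice and black bars for the mean and SD; the y axes give templates per library, the OT-1 share in percent of productive templates, clonality (0 to 1) with and without OT-1, richness in rearrangements at 6340 templates (axis not from 0), and the largest non-OT-1 clone in percent. Templates and richness are higher on day 136 in 6 of 7 mice, clonality with OT-1 is lower in 6 of 7, and clonality without OT-1 goes up in mice 1 and 6 only.

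Richness, the number of rearrangements at 6340 templates without OT-1, was 5269 ± 171 on day 126 and 5514 ± 223 on day 136. It was higher in 6 of 7 mice, with 4996 and 5589 in mouse 2 at one end and 5178 and 5166 in mouse 1 at the other. The mean difference of 246 ± 234 rearrangements had an exact p of 0.0312 and an adjusted p of 0.104. The share of templates that were alone in their rearrangement at this depth was likewise 71.0% ± 4.94 and 77.8% ± 5.31, higher in 6 of 7 mice (exact p = 0.0312, adjusted p = 0.104).

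Depth moved with the share of templates alone in their rearrangement in every mouse, and with richness in all but mice 1 and 7. That share was lower on day 136 only in mouse 7, at 72.2% and 72.0%. Mouse 7 was also the only mouse with fewer templates other than OT-1 on day 136. The library with the fewest templates other than OT-1, mouse 2 on day 126, had the lowest richness, and the library with the most, mouse 5 on day 136 with 22115, had the highest, 5828. Richness and depth were both higher on day 136 in 5 mice. In mouse 1 the templates other than OT-1 numbered 7849 and 9334 while richness was 5178 and 5166, and in mouse 7 they numbered 10973 and 9169 while richness was 5254 and 5282. The part of depth in these differences was not tested. At full depth 80.2% to 82.3% of rearrangements had 1 template in all 14 libraries, whatever their size. Rearrangements per 100 templates at full depth, an added measure chosen after the data were seen, were 78.2 ± 1.18 on day 126 and 78.7 ± 1.33 on day 136, and the mean difference of 0.527 had an exact p of 0.422.

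**Figure D2:**
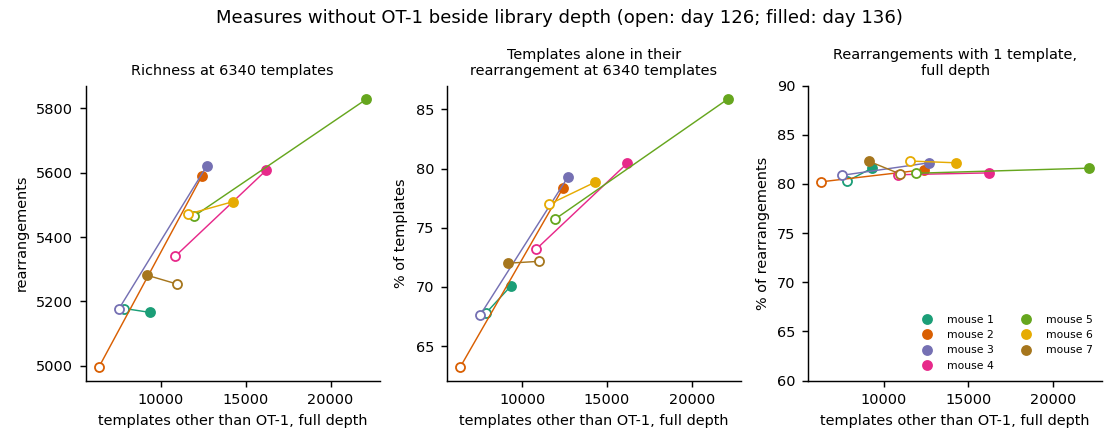
Richness at 6340 templates, the percent of templates alone in their rearrangement at 6340 templates, and the percent of rearrangements with 1 template at full depth (y axes, none from 0) against the number of templates other than OT-1 in the library (x axis), with open circles for day 126, filled circles for day 136 and a line joining the 2 days of each mouse. The first 2 measures run from 4996 rearrangements and 63.2% in the shallowest library to 5828 and 85.9% in the deepest, with richness moving against depth in mice 1 and 7, whereas the third stays between 80.2% and 82.3%.

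Large clones held a small part of the repertoire beside OT-1. The 10 largest held 2.31% ± 1.35 of templates other than OT-1 on day 126 and 2.82% ± 1.58 on day 136 (exact p = 0.609, adjusted p = 0.871), higher in 3 mice and lower in 4. The average difference came from mouse 1, where they held 1.29% before and 5.04% after. Without this mouse the mean difference was -0.0342 percentage points instead of 0.506. Mice 2, 4 and 5 differed by less than 0.2 percentage points.

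By size class at 6340 templates, clones of 0.1% or more held 2.01% ± 1.52 on day 126 and 2.60% ± 1.75 on day 136 (exact p = 0.484, adjusted p = 0.871). Mouse 1 again stood apart with 1.09% and 5.19%, and without it the mean difference was 0.00834 in place of 0.593 percentage points. In mouse 7 the class held 4.42% before and 3.28% after. Clones from 2 templates to under 0.1% held 27.0% ± 6.05 and 19.6% ± 4.42, a change of -7.48 ± 5.58 percentage points with 6 of 7 mice lower. This class is the counterpart of the templates alone in their rearrangement.

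**Figure D3:**
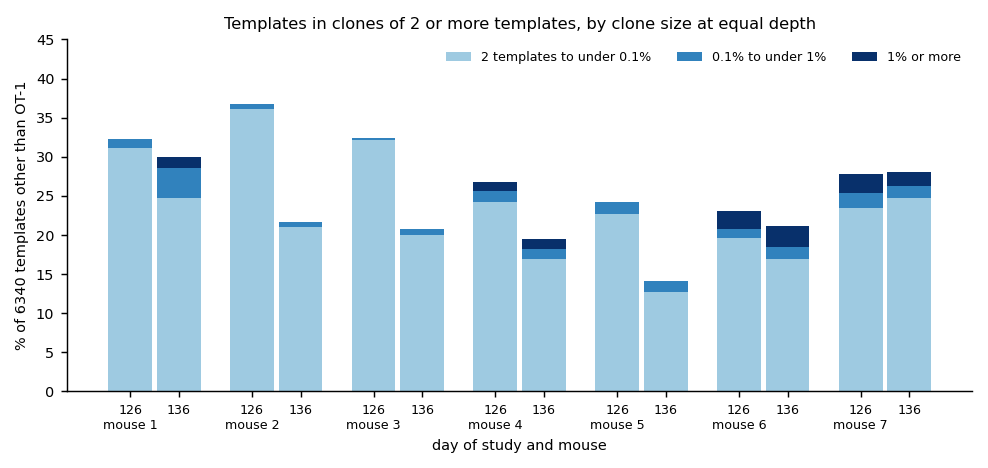
Percent of 6340 templates other than OT-1 (y axis) in clones of 2 templates to under 0.1%, 0.1% to under 1%, and 1% or more (stacked colours, expected values at equal depth) for each mouse on day 126 and day 136; the rest, up to 100%, are templates alone in their rearrangement. The small-clone class shrinks in 6 of 7 mice, and the classes of 0.1% or more grow mainly in mouse 1, from 1.09% to 5.19%.

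Whether a clone was seen again on the other day depended strongly on its size. The counts pool the 7 mice at full depth. Depth was higher on day 136 in 6 of 7 mice, so the 2 directions are not a like comparison. Of the 36 clones with 10 or more templates on day 126, 33 (91.7%) were found on day 136, and of the 125 clones with 5 to 9 templates, 62 (49.6%) were found. Of the 9745 with 2 to 4 templates only 2.28% were found, and of the 42432 with 1 template 1.15%. Looking back from day 136, 49 of 70 clones with 10 or more templates (70.0%) had been present on day 126, as had 49 of 122 with 5 to 9 templates (40.2%). By mouse, clones with 10 or more templates were found again in 72.7% to 100% of cases looking forward and 50.0% to 100% looking back. Mouse 3 had no such clone on day 126. Of clones with 2 to 4 templates on day 136 1.81% had been present on day 126, and of those with 1 template 0.746%. In all, the rearrangements seen on both days held 3.30% to 6.55% of the day 126 templates other than OT-1 in mice 1, 4, 5, 6 and 7, and 1.74% and 2.19% in mice 2 and 3.

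New and lost clones were similar in number. At equal depth 3.51 ± 1.24 clones per mouse had at least 5 templates after EL4 and 0 before, and 3.32 ± 1.27 had at least 5 before and 0 after. The difference of 0.188 clones had an exact p of 0.812 and an adjusted p of 0.903. Mice 1 and 5 had the largest excess of appearing clones, 5.62 against 2.78 and 3.88 against 1.68. With a minimum of 10 templates the difference was 0.993 clones (exact p = 0.0312, adjusted p = 0.0781), and with a minimum of 3 it was -75.3 (exact p = 0.0312, adjusted p = 0.0781).

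Each animal kept a repertoire of its own. Between the 2 EL4 days a mouse shared 35.9 to 75.4 rearrangements with itself at equal depth, against 9.52 to 21.4 with any other mouse. The Morisita-Horn index, which weights shared clones by their size and runs from 0 to 1, was measured without OT-1 and at full depth. It was 0.828 in mouse 6, 0.729 in mouse 7, 0.634 in mouse 4, 0.452 in mouse 5, 0.152 in mouse 1, 0.109 in mouse 2 and 0.0413 in mouse 3. Mice 6, 7 and 4, each with a clone of over 1% on both days, stood at the top of this order. For all 28 libraries of the cured mice on 4 days, the closest library was another of the same mouse (28 of 28), and the highest index between different mice was 0.0276 among 336 pairs. The closest library was of the same mouse in 14 of 14 libraries around EL4 as well.

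**Figure D4:**
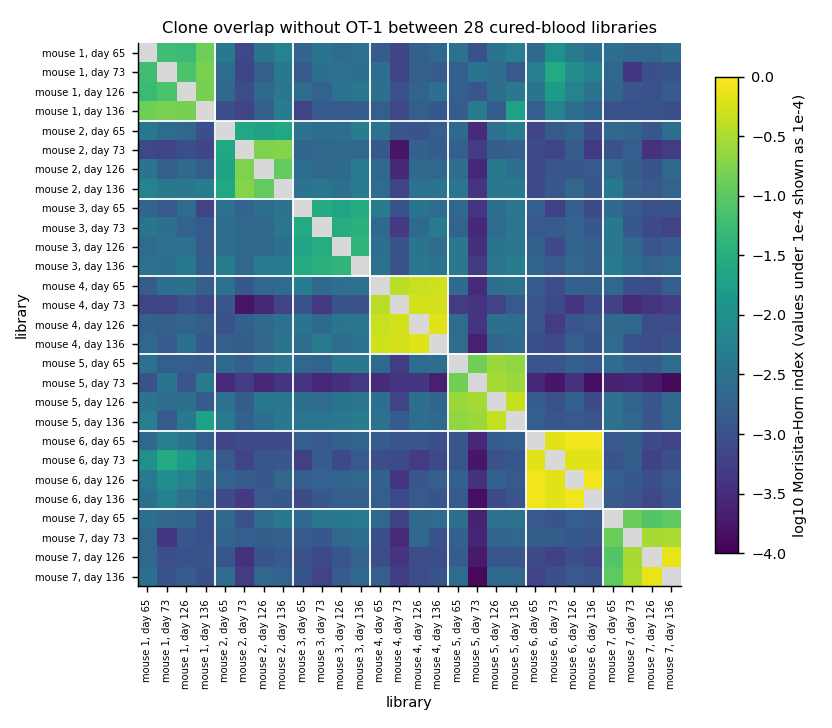
Morisita-Horn index without OT-1 between the 28 blood libraries of the 7 cured mice (both axes, ordered by mouse and day; colour on a log10 scale, grey on the diagonal), with white lines between mice. Bright blocks lie along the diagonal, within mice, where the index between day 126 and day 136 runs from 0.0413 in mouse 3 to 0.828 in mouse 6; values between different mice are at most 0.0276.

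Few receptors were found in every library. Of 96504 distinct CDR3 amino acid sequences other than OT-1, 1 was found in all 14 libraries, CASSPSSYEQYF, which was encoded by 22 different nucleotide sequences. Its mean share was 0.0812% on day 126 and 0.0338% on day 136, lower in 6 of 7 mice, and it was not tested since it was selected from these libraries.

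No V segment passed the test. With edgeR's quasi-likelihood test and mouse as a term, 0 of 24 V segments passed an adjusted p of 0.05, or 0% of those tested. An unadjusted p under 0.05 was found for 2 (DESeq2 called 0, with 0 under an unadjusted 0.05). The 2 were TCRBV14-01 and TCRBV15-01, named for this count after their values were seen, with 3.31% ± 0.826 and 3.63% ± 1.12 for TCRBV14-01 (log2 change 0.13 ± 0.05 SE, adjusted p = 0.334) and 2.70% ± 0.414 and 2.97% ± 0.218 for TCRBV15-01 (0.13 ± 0.06, adjusted p = 0.334). Without rearrangements of 0.1% or more, TCRBV15-01 had a log2 change of 0.17 (edgeR adjusted p = 0.0533). With each rearrangement counted once it was 0.09 (edgeR adjusted p = 0.755). TCRBV15-01 is also the segment of the EG7.OVA tumor rearrangement, which itself had 0 templates in these libraries. No V segment moved in the same direction in all 7 mice.

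The most used V segment was TCRBV13-02, a member of the family long called Vβ8. Its share of templates other than OT-1 had a lowest value of 10.1%, a median of 11.1% and a highest of 12.0% before EL4, and 10.3%, 10.8% and 11.9% after. The ranges of the 2 days overlapped almost fully, and the log2 change was -0.01 ± 0.04 (SE; edgeR adjusted p = 0.984). TCRBV19-01 (Vβ6) had 7.82% ± 0.896 and 7.72% ± 0.959, and TCRBV03-01 had 7.19% ± 0.376 and 7.29% ± 0.369. TCRBV02-01 (Vβ4) had 6.82% ± 0.545 and 6.46% ± 0.239, lower in 5 mice (log2 change -0.08 ± 0.04, edgeR adjusted p = 0.465), and TCRBV13-03 had 6.56% ± 0.473 and 6.21% ± 0.239, lower in 5 mice (log2 change -0.08 ± 0.04, edgeR adjusted p = 0.465).

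Of 12 J segments, 0 were called by edgeR (0% of those tested), and 1, TCRBJ01-01, had an unadjusted p under 0.05. DESeq2 also called 0. TCRBJ02-07, the J segment of OT-1 and of the largest clones of 5 mice, was by far the most used: its share of templates other than OT-1 ran from 27.2% over a median of 29.5% to 30.8% before and from 28.6% over 29.1% to 30.4% after. Its log2 change was 0.02 ± 0.02 (SE; edgeR adjusted p = 0.479). TCRBJ02-05 had a median of 9.61% before and 9.93% after. TCRBJ01-01 had 8.99% ± 0.221 and 9.31% ± 0.314, higher in 6 of 7 mice (log2 change 0.05 ± 0.02, edgeR adjusted p = 0.351). No J segment moved the same way in all 7 mice.

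The profile of V use as a whole was on average closer between the days of a mouse than between mice. Summed over 35 V segments, the shares that would have to move to turn 1 profile into the other were 3.54 ± 1.02 percentage points between the days of a mouse, and 4.87 points on average between day 126 of a mouse and day 136 of another (2.96 to 7.14, 42 pairs that share libraries). In 6 of 7 mice the own day 136 profile was the closest to that of day 126. For J segments the values were 2.03 ± 0.776 and 2.66 points, and the own profile was the closest in 3 of 7.

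CDR3 length was the same on both days to within a few hundredths of an amino acid. The mean length was 13.80 ± 0.0400 amino acids by templates on day 126 and 13.80 ± 0.0282 on day 136 (exact p = 0.781, adjusted p = 0.903). With each rearrangement counted once it was 13.90 ± 0.0118 and 13.90 ± 0.0135 (exact p = 0.578, adjusted p = 0.871). Of 10 length classes tested with edgeR, 0 were called (0% of those tested), with 0 at an unadjusted p under 0.05, and DESeq2 called 0. The most frequent length, 14 amino acids, had 30.6% ± 1.53 of templates before and 30.7% ± 0.990 after. With OT-1 kept, the mean length by templates was higher by 0.0357 after EL4 (exact p = 0.0469, adjusted p = 0.0938), OT-1 having a CDR3 of 12 amino acids.

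**Figure D5:**
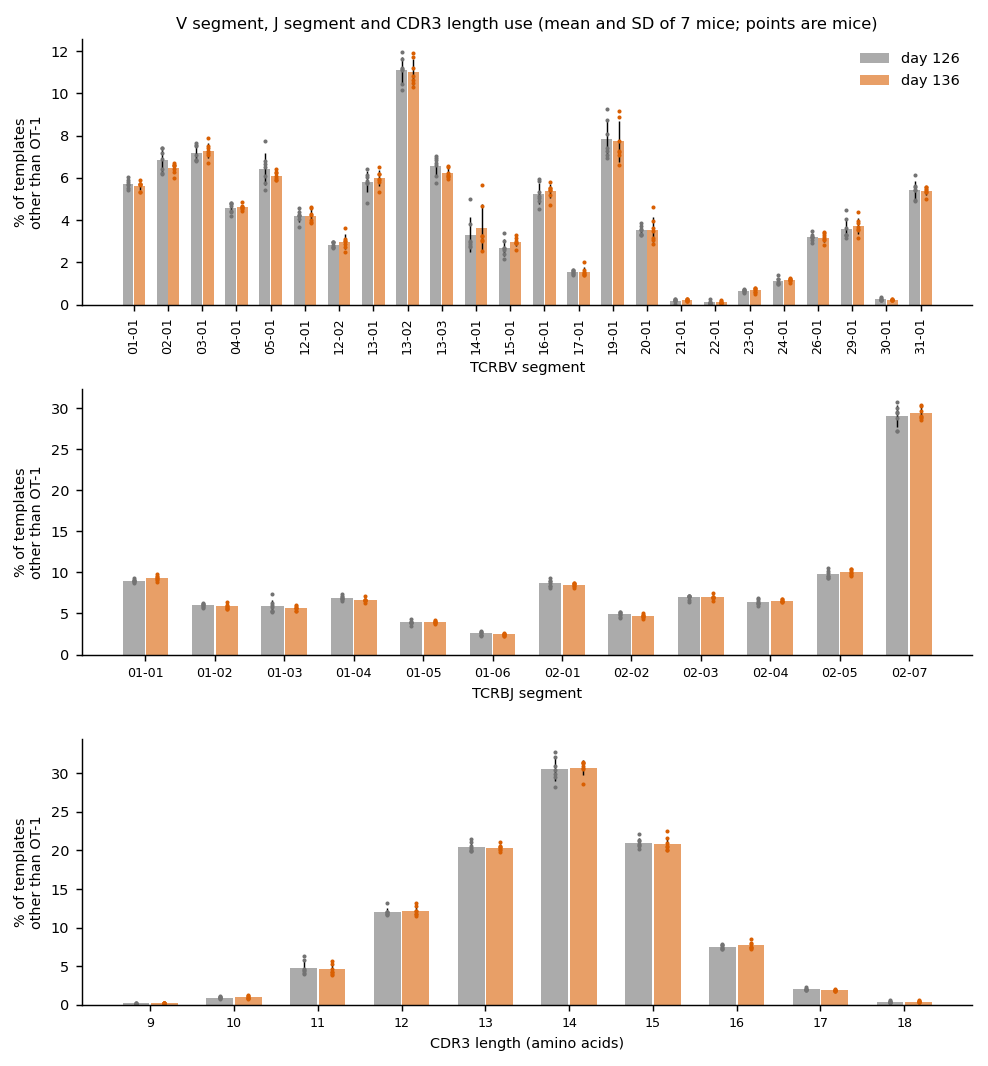
Share of templates other than OT-1 (y axes, percent) by V segment, J segment and CDR3 length in amino acids (x axes) on day 126 (grey) and day 136 (orange); bars are means of 7 mice, error bars SD and points single mice, for the classes that were tested. The bars of the 2 days overlap within their SD in every class named in the text, such as TCRBV19-01 at 7.82% and 7.72% and TCRBJ02-07 at 29.0% and 29.4%.

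Set beside the EG7.OVA rechallenge of the same mice (day 65, 1 day before, and day 73, 7 days after), the shifts over EL4 were of another size or direction. Besides the tumor line, the 2 challenges differed in order, injection site and days to blood. By the paper, more EG7.OVA cells than EL4 cells were injected. These differences cannot be told apart here. At 4281 templates, the depth of the smallest of the 28 libraries, clonality with OT-1 changed by -0.0128 ± 0.0107 over EL4 and by 0.175 ± 0.114 over EG7.OVA. The ranges of the changes did not overlap, and the difference had the smallest exact p that 7 mice allow (exact sign-flip p = 0.0156, adjusted p = 0.0208 over 4 contrasts). OT-1 itself had a mean share of 2.11% ± 1.86 on day 65 and 24.1% ± 15.4 on day 73. Without OT-1 the changes in clonality were 3.72e-05 ± 0.00550 over EL4 and 0.0128 ± 0.0111 over EG7.OVA, with 6 of 7 mice lower over EL4 (exact p = 0.0781, adjusted p = 0.0781). Mouse 1 was the exception, and without it the adjusted p of the exact test was 0.0312. The 6 mice left all had the same sign, which fixes the exact p at the smallest that 6 pairs allow. This repeat therefore adds no support for a difference.

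By an index taken at full depth, non-OT-1 clones overlapped more between the EL4 days than between the EG7.OVA days. Depth differed between these days, and its part in the index was not tested. The Morisita-Horn index was 0.421 ± 0.321 against 0.202 ± 0.235, higher in 7 of 7 mice (mean difference 0.218 ± 0.198; exact p = 0.0156, adjusted p = 0.0208). The largest differences were in mouse 7, with 0.729 against 0.127, and mouse 5, with 0.452 against 0.138. Between day 73 and day 126 the index was 0.295 ± 0.235. Counting shared rearrangements without weighting by size, at an equal depth of 4281 templates, 0.472% ± 0.132 were shared over EL4 and 0.380% ± 0.0910 over EG7.OVA (exact p = 0.0938, adjusted p = 0.0938). This share was lower over EL4 in mouse 2 (0.279% against 0.342%) and mouse 6 (0.370% against 0.376%), and higher in the other mice.

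Richness changed by 118 ± 127 rearrangements over EL4 and by -316 ± 276 over EG7.OVA, with 7 of 7 mice higher over EL4 (exact p = 0.0156, adjusted p = 0.0208). Depth moved in the same directions: templates other than OT-1 numbered 9295 ± 1842 and 5732 ± 1294 on days 65 and 73, and 9577 ± 2265 and 13739 ± 4466 on days 126 and 136. Per 100 templates at full depth the difference between the challenges was 0.189 rearrangements (exact p = 0.906, adjusted p = 0.906). The libraries of the 2 experiments also differed in their smallest counts, since 68.5% to 76.7% of rearrangements had 1 template on days 65 and 73 against 80.2% to 82.3% on days 126 and 136. The part of this difference in the contrasts with EG7.OVA was not tested.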

How the data were processed

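TCRβ CDR3 regions were amplified from genomic DNA of 50 to 60 µL of blood with the immunoSEQ assay and processed by its provider. For each nucleotide rearrangement the authors deposited a count of templates, not normalized; aligner and filters are not given in the sources used here. The members and lists were chosen with earlier results of these data known.

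Rows marked in frame were used. OT-1 was every rearrangement with CDR3 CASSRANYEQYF. Equal-depth values are exact expectations under drawing without replacement (hypergeometric), at 6340 templates (14 libraries) or 4281 (28 libraries). An exact sign-flip test (2-sided) was applied to within-mouse differences, with Benjamini-Hochberg adjustment over 10 measures and over 4 contrasts, threshold 0.05. V, J and length counts, without OT-1, were summed and fitted with edgeR 4.0.16 (quasi-likelihood, terms mouse and day, library size the total templates, mean of at least 10 templates), and with DESeq2 1.42.0 as an alternative (R 4.3.3). The formulas and the edgeR step were tested on simulated data. Pairs come from the same animal, and the closest library was of the same mouse in 28 of 28. The day 73 library of mouse 2 carries the wording of another mouse and was placed by animal code. Named segments were those past the threshold, those moving the same way in 7 of 7 mice, and the 5 V and 3 J segments most used before EL4; named clones were OT-1, the largest other clone of each mouse, and CDR3s in all 14 libraries. Alternatives were other depths, indices, clone definitions, thresholds, normalizations, no pairing and leaving out each mouse. Scipy 1.17.1, numpy 2.4.6 and pandas 2.3.3 were run under Python 3.11.15.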

Additional observations from a re-analysis of the deposited data

Results flagged for a closer look

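Mouse 1 lay apart from the other 6 mice in the change of the 10 largest clones (3.75 percentage points), in the change of the share in clones of 0.1% or more (4.10 percentage points) and in mean CDR3 length by rearrangements on day 126 (13.92 amino acids). These were 3 of 61 groups of 7 values examined by Dixon's test, and chance marks about 1 group in 20.

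EL4 and the EG7.OVA rechallenge differed in the same mice in clone overlap between days (0.218 on the Morisita-Horn scale), in the change of clonality with OT-1 (-0.188) and in the change of richness (434 rearrangements), each by a test of the difference itself; the richness difference was not seen per 100 templates at full depth (0.189, exact p = 0.906).

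Rearrangements that are out of frame or hold a stop codon were outside the comparisons, yet some had as many templates as the largest productive clones. The most abundant of each mouse on day 136 had 113, 26, 22, 129, 182, 31 and 29 templates in mice 1 to 7. In mouse 1 a TCRBV04-01 rearrangement with a stop codon had 9 templates on day 126 and 113 on day 136, beside 15 and 130 for the productive clone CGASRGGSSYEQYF. In mouse 5 a TCRBV13-03 rearrangement out of frame had 36, 358, 144 and 182 templates on days 65, 73, 126 and 136, beside 27, 283, 105 and 174 for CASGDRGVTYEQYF. In mouse 4 a TCRBV13-01 rearrangement out of frame had 84, 123, 84 and 129, beside 77, 215, 133 and 209 for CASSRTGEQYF. Whether such pairs belong to the same cells was not tested.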

How the results depend on the processing

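Of 76 alternatives to the 17 results, 63 kept direction and side of the threshold. The cause of the others was not tested. Clonality without OT-1 turned to 0.00142 at full depth, 0.000349 with the Simpson index and 0.00649 without rearrangements with 1 template. The share of the 10 largest clones turned to -0.440 with the 100 largest and -1.33 with OT-1 kept, that in clones of 0.1% or more to -0.156 at a threshold of 0.05%, and CDR3 length by templates to -0.00350 without clones of 0.1% or more. Appearing minus disappearing clones turned to -2.56 at the depth of each mouse's smaller library, -0.909 with CDR3, V and J as the clone and -75.3 at 3 templates. The contrasts with EG7.OVA lost their call in clone overlap by the Jaccard index (0.000921) and in richness per 100 templates (0.189). With OT-1 kept, 1 V segment was called in place of 0, TCRBV12-01, that of OT-1.

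Leaving out each mouse in turn gave ranges of -0.00240 to 0.000370 for clonality without OT-1 (highest without mouse 2; above 0 also without mouse 3, 5 or 7, at 9.58e-05, 0.000161 and 0.000345), -0.0342 to 0.742 for the 10 largest clones, 0.00834 to 0.882 for clones of 0.1% or more (both lowest without mouse 1), and -0.00569 to 0.00840 and -4.49e-05 to 0.00904 for CDR3 length by templates and by rearrangements (both lowest without mouse 7). It gave -0.254 to 0.468 for appearing minus disappearing clones (lowest without mouse 1, and -0.147 without mouse 5). For the clonality contrast without OT-1 it gave -0.0162 to -0.00904, lowest without mouse 1. That repeat passed the threshold, at the smallest exact p that 6 pairs allow. No other call changed when a mouse was left out. Without the mouse as a replicate block, 0 V, 0 J and 0 length classes were called, and clonality with OT-1 had an exact permutation p of 0.498 in place of 0.0312, with the same mean change of -0.0133. The SD of CDR3 length differed by 0.00285. Clones under 5 templates were seen on the other day in 0.746% to 2.28% of cases, so at this depth only larger ones can be followed.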

Other observations

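The highest overlaps between different mice rested on identical nucleotide rearrangements, named here after their values were seen. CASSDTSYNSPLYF (TCRBV13-01 with TCRBJ01-06) was found in all 4 libraries of mouse 1, with 3, 7, 5 and 3 templates on days 65, 73, 126 and 136, and in all 4 of mouse 6, with 23, 104, 39 and 29, and in no library of the other cured mice. It gave 96.8% of the summed products of template counts behind the index of 0.0276 between mouse 1 and mouse 6 on day 73. A TCRBV12-02 with TCRBJ01-02 rearrangement had 64 templates in mouse 1 and 20 in mouse 5 on day 136 and 0 in the other 26 cured-blood libraries, including those of both mice before EL4. It gave 93.9% of the products behind the index of 0.0193 between these 2 libraries, the highest between different mice on the EL4 days. How it came to be in both libraries was not tested.

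CDR3s of 19 amino acids had a higher share on day 136 in 7 of 7 mice, at 0.0416% ± 0.0162 and 0.0618% ± 0.0221 of templates other than OT-1. This class lay under the minimum of 10 templates on average, was not tested, and was the only one of 24 length classes to move the same way in every mouse. It held 90 templates over the 14 libraries, and in mouse 4 its shares were 0.0554% and 0.0555%. The count of mice thus rests partly on very small differences.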
